A study of Mus musculus with 6 samples.

Results

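The 7 genes described here carry the neurotransmitter GABA through its cycle in brain tissue: Gad1 and Gad2 make it, Slc32a1 loads it into vesicles, Slc6a11 and Slc6a13 take it up across the cell membrane, and Abat and Aldh5a1 break it down. They were found by gene symbol among the 24972 rows of a table of normalized RNA-seq counts, and all 7 were present. Total RNA was sequenced from cortices dissected at postnatal day 7 (P7), in 3 libraries labelled wildtype (Zmiz1f/f mice, which carry floxed Zmiz1 alleles and no Cre) and 3 labelled Zmiz1-KO (Zmiz1f/f;Emx1Cre). Both groups therefore carry the floxed alleles. Emx1-Cre recombines in progenitors of the dorsal telencephalon, which give rise to cortical excitatory neurons and much of the cortical glia, whereas cortical interneurons come from ventral progenitors outside this lineage. The sources do not say whether animals were pooled in a library, so the p-values below measure the spread between libraries.

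Zmiz1, the targeted gene, had normalized counts of 8119, 7929 and 7461 in wildtype and of 9944, 9779 and 9660 in Zmiz1-KO-labelled libraries. It was thus higher, not lower, under the knockout label (log2 fold change 0.32 ± 0.0402, SE, limma adjusted p = 0.00125). These values count reads over the whole gene, which can include exons outside the deleted part, so they do not check the deletion itself. Emx1, the gene whose promoter drives Cre, fell from 818, 688 and 784 to 532, 473 and 583 (log2 fold change -0.53 ± 0.0904, SE, limma adjusted p = 0.015), but it did not pass without wildtype replicate 1 (adjusted p = 0.0871), wildtype replicate 3 (0.0628) or Zmiz1-KO replicate 1 (0.0713), or without robust estimation in limma (0.0755). All directions below follow the labels as deposited.

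GABA is the main inhibitory transmitter of the mature cortex. Glutamate decarboxylases convert glutamate to GABA with pyridoxal phosphate as cofactor, the vesicular transporter encoded by Slc32a1 fills synaptic vesicles, and GABA released at synapses is cleared into neurons and astrocytes. GABA transaminase (Abat) then converts it to succinic semialdehyde, which succinic semialdehyde dehydrogenase (Aldh5a1) oxidises to succinate for the citric acid cycle. Gad1, Gad2 and Slc32a1 mark GABAergic neurons in both cortex and striatum, Slc6a11 is mainly an astrocyte transporter in the forebrain, and Slc6a13 is known from the leptomeninges.

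The sequences just upstream of Gad1, Gad2 and Slc32a1 are shown because these genes, all on chromosome 2 but far apart on it, varied together across the libraries. They come from RefSeq promoter windows (GRCm38.p6, 250 bases before to 50 after each start), from which bases that GENCODE M21 places in an exon of the gene were left out. Gad1 is shown for chr2:70561879-70562041, Gad2 for chr2:22622077-22622204 and Slc32a1 for chr2:158610508-158610757, all on the plus strand, and the capitals mark motif matches.
Gad1: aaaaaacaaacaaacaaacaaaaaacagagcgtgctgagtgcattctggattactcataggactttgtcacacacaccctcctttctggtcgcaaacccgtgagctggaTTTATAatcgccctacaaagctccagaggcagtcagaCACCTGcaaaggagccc
Gad2: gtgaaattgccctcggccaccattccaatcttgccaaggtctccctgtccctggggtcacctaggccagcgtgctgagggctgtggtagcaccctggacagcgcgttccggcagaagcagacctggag
Slc32a1: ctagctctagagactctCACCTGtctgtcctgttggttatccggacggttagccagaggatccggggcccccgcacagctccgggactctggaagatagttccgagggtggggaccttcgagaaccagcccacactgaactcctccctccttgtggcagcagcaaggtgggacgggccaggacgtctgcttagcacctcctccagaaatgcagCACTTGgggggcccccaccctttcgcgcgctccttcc

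The capitals in the Gad1 sequence are a TATAAA match, read on the minus strand, and a CANNTG match (the E-box bound by basic helix-loop-helix factors), and those in the Slc32a1 sequence are 2 CANNTG matches. The Gad2 sequence as printed holds no match. In the whole 300-base windows, searched on both strands, Gad2 had 1 CANNTG match nearer its start, and Gad1 had 1 GCGGGGGCG match overlapping no other motif. CANNTG was found in 72.3% of all 32851 windows of the table, TATAAA in 13.6% and GCGGGGGCG in 2.91%. None of these 3 windows held TAATTA (5.29% of all windows), TGACGTCA (1.79%), TGANTCA (7.81%) or GCGTGGGCG (0.612%). The first windows of Slc6a11, Slc6a13 and Aldh5a1 held CANNTG and none of the other motifs, and Abat had no window in the table. No motif other than CANNTG was thus present in more than 1 of the 6 genes with a window.

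None of the 7 genes passed the test between Zmiz1-KO-labelled and wildtype libraries. Of the 15800 genes tested (those with 10 or more normalized counts in 3 or more of the libraries), 65 passed at an adjusted p at or under 0.05 (0.411%), of which 26 were higher (0.165%) and 39 lower (0.247%). This count was 30 without wildtype replicate 1, and without Zmiz1-KO replicate 1, 2 or 3 it was 17, 152 or 12. At an unadjusted p under 0.05, 4 of the 7 genes were higher, against 810 of all tested genes (5.13%), and 1 was lower, against 923 (5.84%). The 2 groups did not overlap for 3 genes that were higher, against 1280 of all tested genes (8.10%), and for 1 that was lower, against 1290 (8.16%). The 7 genes were chosen with earlier results of these data known, so these counts cannot show an enrichment. limma-voom, the second method run, also called 0 of the 7. The median log2 fold change of the 7 genes was 0.30, and 0.20 without wildtype replicate 1, beside -0.000175 over all tested genes. For single genes an exact permutation test of 3 libraries against 3 cannot give a p below 0.1.

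**Figure D1:**
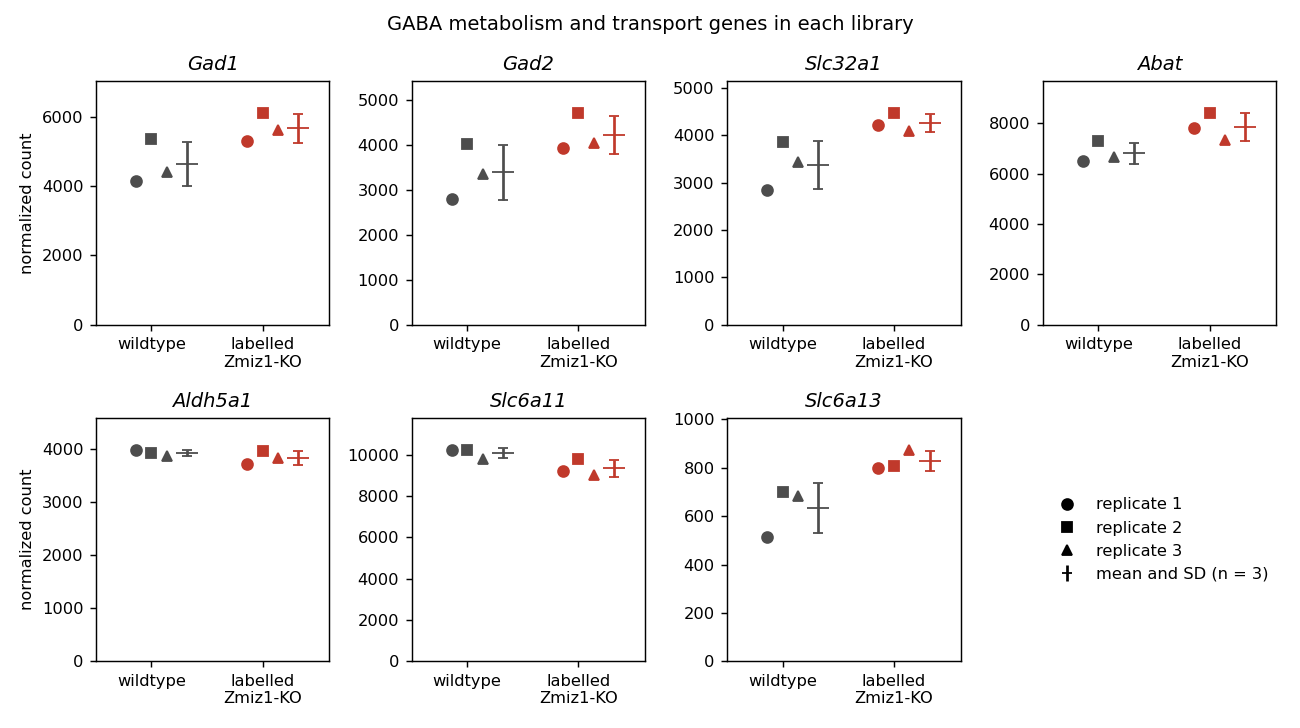
Normalized count (vertical axis, from 0) of each of the 7 genes in the 3 wildtype libraries (grey) and the 3 Zmiz1-KO-labelled libraries (red), with the mean and SD (n = 3) beside the points. Slc32a1, Abat and Slc6a13 lie higher in every Zmiz1-KO-labelled library than in any wildtype library, the groups overlap for Gad1, Gad2 and Aldh5a1, and wildtype replicate 1 (circle) is the lowest library for Gad1, Gad2, Slc32a1, Abat and Slc6a13.

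The synthetic enzymes came first in the cycle. Gad1 (chr2:70553072-70602014, plus strand, GRCm38), which encodes the larger glutamate decarboxylase and supplies most of the basal GABA of the brain, had normalized counts of 4145, 5356 and 4390 in wildtype and of 5288, 6110 and 5602 in Zmiz1-KO-labelled libraries. Wildtype replicate 2 lay just above the lowest Zmiz1-KO-labelled library, so the groups overlapped. Its log2 fold change was 0.30 ± 0.11 (SE, 95% interval 0.02 to 0.58, limma adjusted p = 0.424). The gene Gad1os, on the opposite strand, spans the start of Gad1 without sharing 75-base stretches with it, and it had values from 5.9 to 18.9, small beside Gad1 itself.

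Gad2 (chr2:22622205-22693874, plus strand) encodes the smaller decarboxylase, which sits largely at nerve terminals. Its normalized counts were 2792, 4026 and 3353 in wildtype and 3928, 4715 and 4047 in Zmiz1-KO-labelled libraries. The groups again overlapped through wildtype replicate 2, and the range within wildtype was wider than the difference between the group means. The log2 fold change of Gad2 was 0.33 ± 0.17 (SE, 95% interval -0.12 to 0.78, limma adjusted p = 0.578), and without wildtype replicate 1 it was 0.20.

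Slc32a1 (chr2:158610767-158615748, plus strand) encodes the vesicular transporter for GABA and glycine, and it had normalized counts of 2851, 3862 and 3439 in wildtype. In Zmiz1-KO-labelled libraries it had 4212, 4477 and 4103, all above the highest wildtype library. This gave a log2 fold change of 0.34 ± 0.12 (SE, 95% interval 0.05 to 0.63, limma adjusted p = 0.378). Of the 75-base stretches of its transcript, 23% also occur in the antisense gene Gm14205, which has no row in the table. Leaving out wildtype replicate 2, the highest wildtype library for all 3 of these genes, moved Gad1 to 0.41 on the log2 scale (limma adjusted p = 0.00819) and Slc32a1 to 0.44 (adjusted p = 0.0316), past the threshold, while Gad2 at 0.46 did not pass (adjusted p = 0.224). Leaving out wildtype replicate 1, the lowest, brought them to 0.22, 0.20 and 0.23 in the order Gad1, Gad2 and Slc32a1. The size of the difference in the GABAergic neuron genes therefore depended on which wildtype library was in the comparison.

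The proportions among these 3 genes varied little. The ratio of Gad1 to Gad2 in normalized counts was 1.48, 1.33 and 1.31 in wildtype and 1.35, 1.30 and 1.38 in Zmiz1-KO-labelled libraries. The ratio of Slc32a1 to Gad1 was 0.688, 0.721 and 0.783 in wildtype and 0.797, 0.733 and 0.732 in Zmiz1-KO-labelled libraries. Both ratios overlapped between the groups (exact two-sided permutation p = 0.8 and 0.5, n = 3 per group). Over the 6 libraries, which share their tissue and their normalization, Pearson's r on the log2 scale was 0.97 between Gad1 and Gad2, 0.97 between Gad2 and Slc32a1 and 0.94 between Gad1 and Slc32a1. With the group means subtracted these were 0.96, 0.96 and 0.86, so the genes also went together within the groups.

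Breakdown of GABA starts with Abat (chr16:8513429-8621568, plus strand), a mitochondrial transaminase of neurons and glia. Its normalized counts were 6495, 7287 and 6663 in wildtype and 7803, 8424 and 7344 in Zmiz1-KO-labelled libraries. Every Zmiz1-KO-labelled library was above every wildtype library, although Zmiz1-KO replicate 3 exceeded wildtype replicate 2 by little. Abat had the lowest adjusted p of the 7 genes (log2 fold change 0.20 ± 0.0545, SE, 95% interval 0.09 to 0.32, limma adjusted p = 0.168). With single libraries left out, the log2 fold change of Abat ran from 0.15 to 0.25. Without wildtype replicate 2 its limma adjusted p was 0.05 when rounded, at the edge of the threshold but not past it.

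Aldh5a1 (chr13:24907579-24937661, minus strand), the next enzyme on the route, had normalized counts of 3991, 3916 and 3864 in wildtype and of 3713, 3970 and 3823 in Zmiz1-KO-labelled libraries. Zmiz1-KO replicate 2 lay inside the wildtype range and the other 2 Zmiz1-KO-labelled libraries lay just below it, so the groups overlapped. Its log2 fold change was -0.03 ± 0.0427 (SE, 95% interval -0.12 to 0.06, limma adjusted p = 0.845). Of the 75-base stretches of Aldh5a1, 11.8% are shared with other genes, 9.44% with 4932702P03Rik, which overlaps its end on the opposite strand.

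The ratio of Abat to Aldh5a1 was 1.63, 1.86 and 1.72 in wildtype and 2.10, 2.12 and 1.92 in Zmiz1-KO-labelled libraries. It was higher in all 3 Zmiz1-KO-labelled libraries (exact two-sided permutation p = 0.1, n = 3 per group, the smallest p this design allows). The ratio of Abat to Gad1, in contrast, overlapped between the groups, at 1.57, 1.36 and 1.52 in wildtype and 1.48, 1.38 and 1.31 in the others. The Pearson's r of Abat with the mean pattern of Gad1, Gad2 and Slc32a1 over the 6 libraries was 0.93, and 0.83 with the group means subtracted, whereas for Aldh5a1 these values were -0.28 and 0.13.

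Slc6a11 (chr6:114131241-114249952, plus strand), which encodes the plasma membrane GABA transporter of astrocytes, was the most abundant of the 7 genes, with normalized counts of 10246, 10226 and 9808 in wildtype. In Zmiz1-KO-labelled libraries it had 9187, 9807 and 8996. All 3 were lower than any wildtype library, but Zmiz1-KO replicate 2 was below wildtype replicate 3 by about 1 normalized count. Its log2 fold change was -0.11 ± 0.0408 (SE, 95% interval -0.20 to -0.03, limma adjusted p = 0.295).

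Slc6a13 (chr6:121300227-121337733, plus strand), a GABA and taurine transporter known from the leptomeninges and from liver and kidney, was the least abundant. It had normalized counts of 513, 698 and 685 in wildtype and of 799, 806 and 875 in Zmiz1-KO-labelled libraries. The groups were separate, and wildtype replicate 1 stood below the other 2 wildtype libraries. The log2 fold change of 0.40 ± 0.11 (SE, 95% interval 0.17 to 0.63) was the highest of the 7 genes (limma adjusted p = 0.181), and without wildtype replicate 1 it was 0.26.

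The uptake transporters stood on opposite sides of 0. The ratio of Slc6a13 to Slc6a11 was 0.0501, 0.0683 and 0.0698 in wildtype and 0.0869, 0.0822 and 0.0973 in Zmiz1-KO-labelled libraries. It had to be higher in all 3 of the latter, because each had more Slc6a13 and less Slc6a11 than any wildtype library. The ratio therefore adds no separate result. Slc6a12 (chr6:121343076-121365775, plus strand), the betaine and GABA transporter gene that lies next to Slc6a13, was low at 28.1, 98.8 and 66.0 in wildtype and at 107, 110 and 109 in the others. Its groups were separate as well (log2 fold change 0.92 ± 0.42, SE, limma adjusted p = 0.492, and 0.42 on the log2 scale without wildtype replicate 1), and its Pearson's r with Slc6a13 over the 6 libraries was 0.95.

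**Figure D2:**
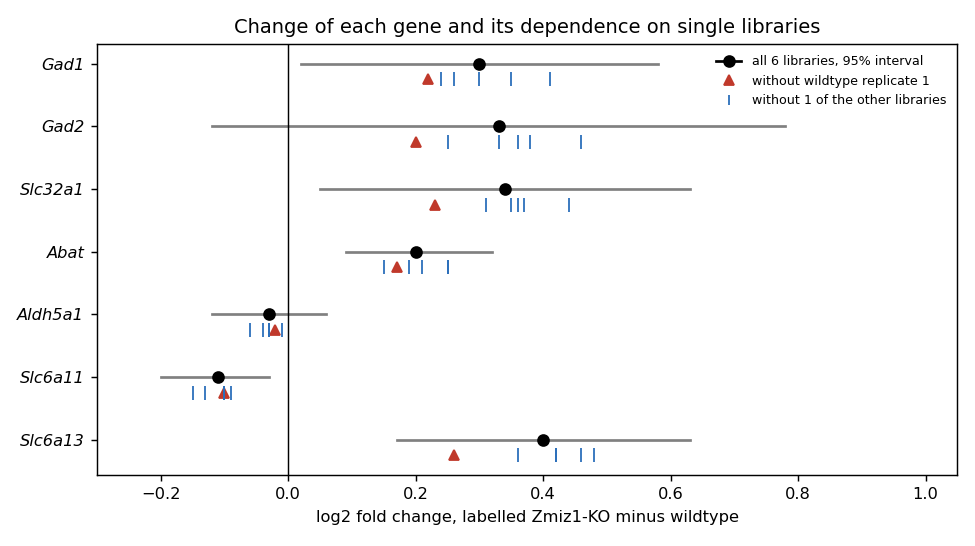
Log2 fold change (horizontal axis, Zmiz1-KO-labelled minus wildtype libraries) of each of the 7 genes with all 6 libraries (black point, 95% interval as a grey line) and with 1 library left out (red triangle for wildtype replicate 1, blue ticks for the others). The 5 genes with positive values stay positive and Slc6a11 stays negative in each fit, and the values without wildtype replicate 1 are the lowest of the fits for Gad1, Gad2, Slc32a1 and Slc6a13.

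Levels can be compared between the genes only per length. Per kilobase of the longest annotated transcript (GENCODE M21), wildtype means in normalized counts were 2443 ± 59.8 (SD, n = 3) for Slc6a11, 1470 ± 90.0 for Abat, 1286 ± 178 for Gad1 and 1210 ± 182 for Slc32a1. Below these came Aldh5a1 at 695 ± 11.3, Gad2 at 590 ± 108 and Slc6a13 at 283 ± 46.3. Slc6a11 stood above all others, and Slc6a13 below all others, with no overlap between wildtype libraries. Neighbours that did not differ beyond their ranges were Abat (1401 to 1572) and Gad1 (1151 to 1487), Gad1 and Slc32a1 (1019 to 1381), and Aldh5a1 (684 to 707) and Gad2 (486 to 701). In Zmiz1-KO-labelled libraries the means per kilobase were 2258 ± 103 for Slc6a11, 1695 ± 117 for Abat, 1574 ± 115 for Gad1, 1525 ± 68.9 for Slc32a1, 736 ± 73.9 for Gad2, 679 ± 22.9 for Aldh5a1 and 370 ± 18.8 for Slc6a13. Only Gad2 and Aldh5a1, whose ranges overlapped, exchanged places. The order in the middle depended on the length used, since per kilobase of all annotated exons together the wildtype mean of Gad1 was 606 and that of Abat 880, below Slc32a1, which has 1 transcript and kept 1210.

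**Figure D3:**
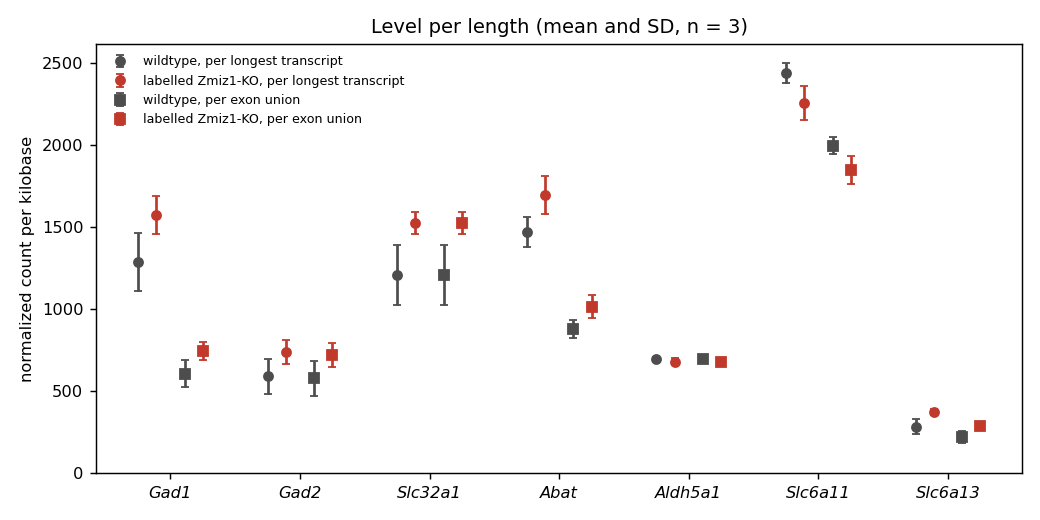
Normalized count per kilobase (vertical axis, from 0; points are means and bars SD, n = 3) of the 7 genes in wildtype (grey) and in Zmiz1-KO-labelled libraries (red), per longest transcript (circles) and per union of annotated exons (squares). Slc6a11 is highest and Slc6a13 lowest with either length, and Gad1 drops from 1286 to 606 in wildtype when all exons are counted.

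Gad1, Gad2 and Slc32a1 are expressed by cortical interneurons and by striatal projection neurons, and in bulk tissue fewer cells of a type cannot be told apart from less RNA per cell. Of 31 tested interneuron markers, 25 had higher and 6 lower estimates. Pvalb, the 32nd on the list, was under the filter, and none was at 0 in all libraries. Without overlap, 7 were higher (against 8.10% of all tested genes). At an unadjusted p under 0.05 there were 10, all higher (against 5.13%). Of these markers, 0 passed the test by limma or limma-voom. Their summed normalized counts were 41585 to 44099 in wildtype and 44581 to 46515 in Zmiz1-KO-labelled libraries, and their median log2 fold change was 0.15 (0.10 without wildtype replicate 1). Sst, the somatostatin gene of a major interneuron class, went from 4022, 4132 and 4282 to 4865, 4562 and 4866 (log2 fold change 0.20 ± 0.0437, SE, limma adjusted p = 0.0598), and Lhx6, a factor of interneurons from the medial ganglionic eminence, from 1168, 1407 and 1361 to 1566, 1518 and 1646 (0.27 ± 0.0678, adjusted p = 0.123). Both were higher in every Zmiz1-KO-labelled library without passing the test, and they were named after their values were seen. The log2 fold changes of the list ran from Prox1 at -0.29 (limma adjusted p = 0.61) to Dlx6 at 0.54 (adjusted p = 0.123).

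Of 18 markers of striatal projection neurons, which are GABAergic, 17 had higher estimates, 10 were higher without overlap (against 8.10% of all tested genes) and 1 passed. Their median log2 fold change was 0.32 (0.18 without wildtype replicate 1). The gene that passed was Pde10a, a phosphodiesterase enriched in medium spiny neurons, at 4712, 4980 and 5134 in wildtype and 6290, 6868 and 5986 in the others (log2 fold change 0.37 ± 0.0507, SE, limma adjusted p = 0.00303). Summed normalized counts of the list were 35956 to 43259 in wildtype and 45952 to 50918 in Zmiz1-KO-labelled libraries, and none of its markers was at 0 in all libraries. Wildtype replicate 1 was the lowest of the 6 libraries for 16 of the 18 striatal and 19 of the 31 interneuron markers, against 20.1% of all tested genes. Isl1, a factor of striatal direct-pathway and cholinergic neurons, was at 78.4 in that library and between 233 and 263 in the other 5, and it was named after its values were seen. The part of these cell types in the values of Gad1, Gad2 and Slc32a1 was not tested.

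For the other members, astrocyte and meningeal markers are given in the same way. Of 16 astrocyte markers, 6 had higher and 10 lower estimates, with a median log2 fold change of -0.03. Their summed normalized counts were 102272 to 108449 in wildtype and 96764 to 105458 in the others. Without overlap, 2 were higher (against 8.10% of all tested genes) and 2 lower (against 8.16%). At an unadjusted p under 0.05, 2 were higher (against 5.13%) and 3 lower (against 5.84%). The water channel gene Aqp4 was the one that passed, falling from 5615, 5150 and 5359 to 4355, 4531 and 4258 (log2 fold change -0.29 ± 0.0442, SE, limma adjusted p = 0.00499), though without Zmiz1-KO replicate 1 or 3 its adjusted p was 0.0511 or 0.0818. All 16 leptomeningeal and fibroblast markers had higher estimates, 10 did not overlap (against 8.10% of all tested genes that were higher without overlap) and 1 passed, the collagen gene Col1a2 (log2 fold change 0.32 ± 0.0469, SE, limma adjusted p = 0.00464, and 0.0688 without Zmiz1-KO replicate 3). Their sums were 22200 to 26525 in wildtype and 28667 to 31364 in Zmiz1-KO-labelled libraries, with a median of 0.29 (0.20 without wildtype replicate 1, which was the lowest library for 13 of the 16), and no marker of either list was at 0 in all libraries. Choroid plexus markers ranged widely, with sums of 438 to 8701 in wildtype and 511 to 5072 in the others, and 0 of 9 passed by limma or limma-voom or had an unadjusted p under 0.05. Among the remaining lists, 12 glutamatergic neuron markers had a median of -0.09, with 3 higher and 9 lower estimates. Without overlap, 2 were higher (Bcl11b and Foxp2, against 8.10% of all tested genes). Another 3 were lower without overlap (Neurod2, Emx1 and Rorb, against 8.16%). Emx1 and Rorb passed, both lower. Emx1 drives the Cre that only the Zmiz1-KO group carries, so cell type and Cre allele cannot be told apart in its value. The 12 markers of the oligodendrocyte lineage had a median of -0.17, with 2 higher and 10 lower estimates. Of these, 5 were lower without overlap (against 8.16% of all tested genes) and Olig1 passed, lower. At an unadjusted p under 0.05, 6 were lower (against 5.84%). Medians were -0.09 for 10 microglial and -0.07 for 12 vascular markers, none of which passed by limma or limma-voom. At an unadjusted p under 0.05, 1 microglial and 2 vascular markers were higher (against 5.13% of all tested genes). At the same level, 1 microglial and 1 vascular marker were lower (against 5.84%). The part of the meninges in the value of Slc6a13, and of astrocytes in that of Slc6a11, was not tested.

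**Figure D4:**
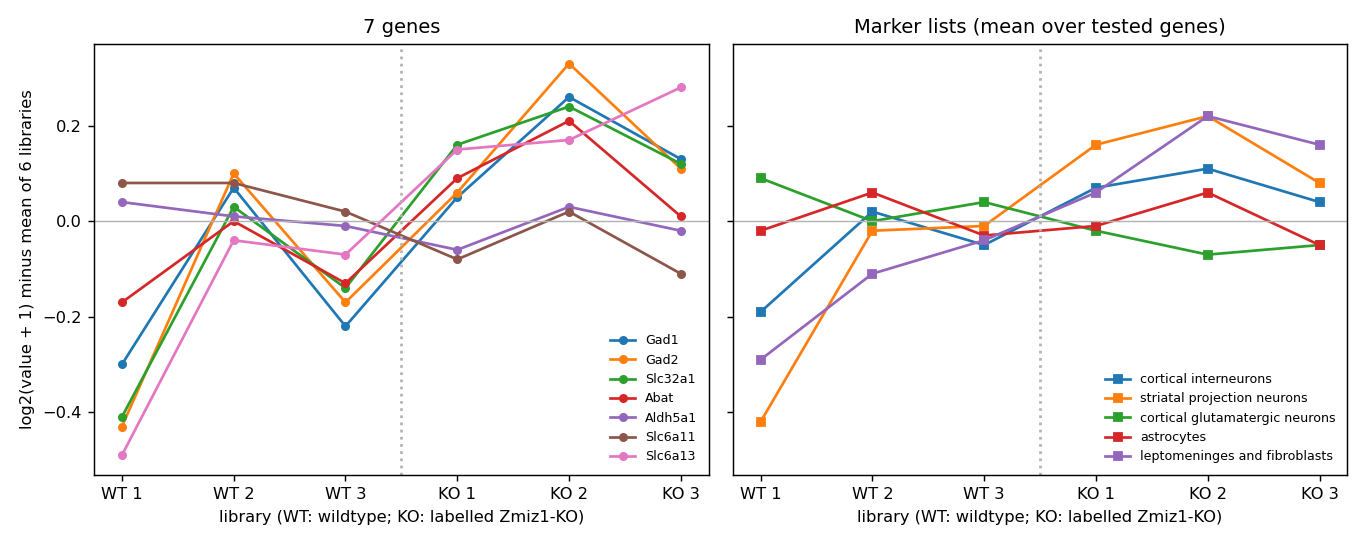
Level of each of the 7 genes (left) and mean level of 5 marker lists (right) in the 6 libraries, as log2(value + 1) minus the mean of all 6 libraries. Gad1, Gad2, Slc32a1 and Slc6a13 are between -0.30 and -0.49 in wildtype replicate 1, where striatal markers are at -0.42 and leptomeningeal markers at -0.29, while Aldh5a1 and Slc6a11 stay within 0.11 of the mean in all libraries.

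The genes most like each of the 7 in pattern were sought among all tested genes by Pearson's r of log2(value + 1) over the 6 libraries, as a description. For the mean of Gad1, Gad2 and Slc32a1 the closest were Plekha7 (r = 0.997), Foxp2, Aldh1a2, Gprc5c, Grid1, Cbx7, Pik3r3, Nradd, Nexn and Glra2. With the group means subtracted, the closest included Ppp1r14a, Plekha7, Calcr, Resp18, Adssl1, Adam17, Cdca2, Kif1a and Asb4, so that Plekha7, a junction protein gene, was the one gene in both lists. Slc6a13 was most like Slc13a4, Itm2c and Ap1s1, and Slc13a4, a sulfate transporter gene on the leptomeningeal list, had an r of 0.99 and normalized counts of 594, 744 and 764 in wildtype and 883, 867 and 951 in the others. Slc6a11 was most like Cnot6, Slc12a2 and Csnk2a2, Abat like E030013I19Rik, Bag3 and Pi15, and Aldh5a1 like Adgra3, Lgalsl and Sycp1. With 6 libraries and 15800 genes, high values of r arise for many genes.

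Around the cycle, 1 gene of the neighbouring pathways passed the test. Glul encodes glutamine synthetase, with which astrocytes make the glutamine that neurons turn into glutamate and GABA, and it fell from 15277, 14679 and 14392 normalized counts in wildtype to 12386, 12825 and 11967 in Zmiz1-KO-labelled libraries. The groups were well apart (log2 fold change -0.25 ± 0.0387, SE, 95% interval -0.34 to -0.17, limma adjusted p = 0.00542). Without Zmiz1-KO replicate 1 or 3 its adjusted p was 0.0511 or 0.0973, with log2 fold changes of -0.25 and -0.23. It was the only one of 16 genes for glutamine and glutamate handling to pass, and the list had 7 higher and 9 lower estimates and a median of -0.03. The glutamine carriers Slc38a1 and Slc38a2 had log2 fold changes of 0.04 and -0.05, and glutamate dehydrogenase (Glud1) of -0.04, all with overlapping groups.

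The other neighbouring lists held no gene that passed by limma or limma-voom. Of 9 genes for the cofactor and for other routes to GABA, 7 had higher and 2 lower estimates (median 0.09) and 0 had an unadjusted p under 0.05. The lowest was the polyamine enzyme gene Odc1 at -0.20, and the pyridoxal kinase gene Pdxk was at 0.07. Of 10 genes for the fate of succinic semialdehyde and the adjoining citric acid cycle, 8 had higher estimates (median 0.06). At an unadjusted p under 0.05, 1 was higher (against 5.13% of all tested genes). The list ran from the aldehyde reductase gene Akr7a5 at -0.03 to Ogdh, a subunit of the oxoglutarate dehydrogenase complex, at 0.10. These differences were all small.

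Of 8 tested transporter genes of the same family, 6 had higher estimates (median 0.07), from the amino acid transporter gene Slc6a15 at -0.10 to Slc6a12. At an unadjusted p under 0.05, 3 were higher (against 5.13% of all tested genes) and 1 lower (against 5.84%). The same shares of all tested genes apply to the lists that follow. Of 13 genes for other vesicular transporters and the vesicular proton pump, 8 had higher estimates (median 0.01, 1 higher with an unadjusted p under 0.05). The list ran from the monoamine transporter gene Slc18a2 at -0.18 to the acetylcholine transporter gene Slc18a3 at 0.61. Slc18a3 had 19.7, 101 and 78.4 normalized counts in wildtype and 91.4, 75.5 and 82.2 in the others. Without wildtype replicate 1 it was at -0.10 on the log2 scale. Of 17 GABA receptor genes, 10 had higher and 7 lower estimates (median 0.01, 2 higher and 1 lower with an unadjusted p under 0.05). The subunits of the metabotropic receptor, Gabbr1 and Gabbr2, had log2 fold changes of 0.04 and 0.05, and the range ran from Gabrb2 at -0.13 to Gabrr1 at 1.86, whose values of 2.02, 0 and 10.3 against 13.9, 7.30 and 12.1 are close to the floor of the table. Of 7 genes for chloride transport and its control, 4 had higher estimates (median 0.02, 1 higher and 1 lower with an unadjusted p under 0.05). These ran from the chloride importer gene Slc12a2 at -0.17 to Slc12a7 at 0.27. Chloride sets whether GABA excites or inhibits a neuron. The receptor list and the chloride list each had values on both sides of 0.

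**Figure D5:**
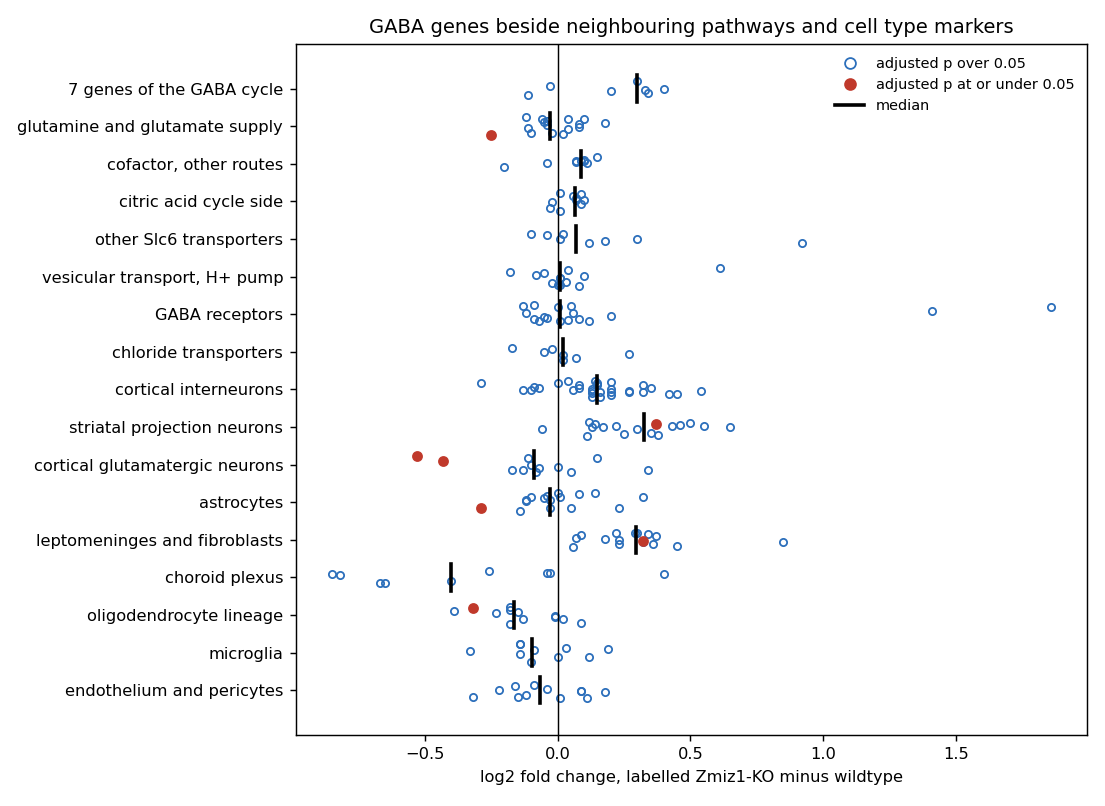
Log2 fold change (horizontal axis, Zmiz1-KO-labelled minus wildtype libraries) of every tested gene of the 7 genes described here, of 7 neighbouring gene lists and of 9 marker lists, with the median as a bar and genes at an adjusted p at or under 0.05 filled in red. The 7 genes have a median of 0.30, close to that of striatal (0.32) and leptomeningeal (0.29) markers, and Glul is the 1 red point among the neighbouring pathways.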

How the data were processed

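RNA-seq libraries of P7 cortex, 3 labelled wildtype and 3 labelled Zmiz1-KO, were grouped by their labels. In Illumina BaseSpace Sequence Hub, the authors mapped reads to mm10 using STAR and scaled gene counts by DESeq2, and they deposited these signal values, called normalized counts here. Tool versions and gene annotation are not given in the sources used here. The most common low value of each library, 1.83 to 2.11, was taken as the value of 1 read. Whether it stands for 1 read or for a read pair was not tested. High values were not whole multiples of it, so whole reads were not recovered and no count test was run. Reads per library estimated in this way were 15494889 to 17858391, or as many pairs if the value stands for a pair. Sums of the values were 32661979 to 33239707. Depth and 3 libraries per group limit the precision.

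Log2(value + 1) was compared with limma (version 3.58.1, R version 4.3.3; trend and robust estimation, two-sided, Benjamini-Hochberg over 15800 genes), after testing the procedure on simulated data. Fold changes are on this scale, which understates the change of low genes. Intervals use limma's moderated standard errors. Coordinates and transcript lengths are from GENCODE M21 (GRCm38) and promoter windows from RefSeq. Figures were drawn with matplotlib (version 3.10.9).

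The 7 genes, the gene lists and the marker lists were chosen with earlier results of these data known. Named from each list were the genes past the threshold, otherwise the genes with the highest and lowest log2 fold change, plus genes acting next to one of the 7, and, for patterns, the 10 or 3 genes with the highest r. Sst, Lhx6 and Isl1 were added after their values were seen. Some genes that these rules name are not reported here. Alternatives were limma-voom, other scalings, pseudocounts, filters and thresholds, a term for Xist, the replicate number as a block, and leaving out each library.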

Additional observations from a re-analysis of the deposited data

How the results depend on the processing

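Across the other settings tried, the log2 fold change of each of the 7 genes kept its sign, and 106 of 112 values kept their side of the threshold. The number of genes called was 65, and it was 17 without robust estimation, 106 at an adjusted p of 0.1 and between 12 and 152 with 1 library left out. The number of the 7 genes called was 0, and between 0 and 2 with 1 library left out, the 2 being Gad1 and Slc32a1 without wildtype replicate 2. In leave-one-out fits the ranges of log2 fold changes were 0.22 to 0.41 for Gad1, 0.20 to 0.46 for Gad2, 0.23 to 0.44 for Slc32a1, -0.06 to -0.01 for Aldh5a1, -0.15 to -0.09 for Slc6a11 and 0.26 to 0.48 for Slc6a13. The median of the chloride genes was 0.05, of the citric acid cycle genes 0.04, of the glutamatergic markers -0.04 and of the choroid plexus markers -0.72 (-0.40 with all 6 libraries) without wildtype replicate 1, an alternative chosen for all lists after seeing the data. The causes were not tested. A count test was not run, since whole reads were not recovered.

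With the replicate number as a block, 168 genes and 4 of the 7 were called: Gad1 (limma adjusted p = 0.0013), Gad2 (0.00502), Abat (0.00944) and Slc6a13 (0.0287). Nothing in the labels says that equal numbers mark a shared litter or day, and deviations of same-numbered libraries from their group means correlated at -0.01, -0.11 and -0.01 over all tested genes, so the numbers were not taken as pairs.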
